A study of Mus musculus with 12 samples.

Results

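The 46 genes described here run the cell cycle and DNA replication in the mouse. They were taken by symbol from an annotated table of raw counts for 39017 genes, and all 46 stood among the 16024 genes that passed a filter on low counts. They fall into 3 classes: 14 replication genes (Pcna, Mcm2, Mcm3, Mcm4, Mcm5, Mcm6, Mcm7, Gins2, Cdc6, Cdt1, Uhrf1, Tyms, Rrm1 and Rrm2), 14 genes of G1 and entry into S phase (Ccnd1, Ccnd2, Ccnd3, Cdk4, Cdk6, Ccne1, Ccne2, Cdk2, Rb1, Rbl1, Rbl2, E2f1, E2f2 and E2f8) and 18 mitotic genes (Mki67, Top2a, Ccna2, Ccnb1, Ccnb2, Cdk1, Plk1, Aurka, Aurkb, Birc5, Bub1, Bub1b, Cdc20, Tpx2, Kif11, Kif20a, Cenpe and Cenpf). The replication and mitotic genes are reported apart. RNA was sequenced from LSK cells, the bone marrow fraction that lacks lineage markers and carries Sca1 and cKit, which holds haematopoietic stem cells and multipotent progenitors.

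The 12 libraries form 4 labelled groups of 3. NICD_TCFKO carries R26 N1IC lox/+, a conditional transgene for the intracellular, active part of NOTCH1, with Tcf7 lox/lox and Mx1Cre. NOTCHWT_TCFKO carries Tcf7 lox/lox and Mx1Cre. NICD_TCFWT carries R26 N1IC lox/+ and Mx1Cre, and NOTCHWT_TCFWT is labelled wild type. Tcf7 encodes TCF1, a transcription factor of T cells and their precursors. All groups had the strain background C57BL/6J; Sv/129 and all received poly(I:C) at 2 ug per g of body weight, which induces Mx1Cre and, through interferon, acts on haematopoietic cells by itself; Mx1Cre is not limited to blood cells. The LSK sort of NICD_TCFKO and NICD_TCFWT had an added gate on CD45.2 and eGFP, so that this gate and the N1IC label cannot be told apart. The series compared LSK cells with Notch1 induced or Tcf1 lost. No age is given, and no label says that replicates were separate mice. The sex transcripts given below differed between replicates of NICD_TCFKO, NICD_TCFWT and NOTCHWT_TCFKO, so these did not all come from the same mouse. For NOTCHWT_TCFWT they do not tell. P-values measure the spread between these libraries, which may in part be technical.

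As background, cells enter the cycle when D-type cyclins with CDK4 or CDK6, and then E-type cyclins with CDK2, phosphorylate the retinoblastoma proteins and release E2F factors, which switch on the genes of DNA synthesis. CDC6 and CDT1 load the MCM helicase on origins, GINS and other factors activate it, PCNA clamps polymerases to DNA, and thymidylate synthase and ribonucleotide reductase supply nucleotides. A-type and B-type cyclins with CDK1 then drive mitosis, with Aurora and Polo-like kinases, kinesins and the spindle checkpoint. Most long-term stem cells in adult marrow rest outside the cycle, while progenitors of the same LSK fraction divide often.

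Library totals ran from 30453271 to 43790674 counts, and the lowest count of any of the 46 genes in any library was 321. CPM below is edgeR's measure of counts relative to library size, with library sizes adjusted by TMM. Tests are edgeR's quasi-likelihood test over all 12 libraries with Benjamini-Hochberg adjustment over the 16024 genes, and a gene is called at an adjusted p under 0.05. The genes that name the groups do not follow the labels throughout. Tcf7 stood at 297, 896 and 615 CPM in NICD_TCFKO, 0.819, 2.76 and 0.267 CPM in NOTCHWT_TCFKO, 5.05, 4.68 and 6.76 CPM in NICD_TCFWT and 14.3, 10.5 and 19.6 CPM in NOTCHWT_TCFWT. The libraries labelled NICD_TCFKO, which carry Tcf7 lox/lox, were the highest. Notch1 stood at 591, 887 and 846 CPM in NICD_TCFKO, 145, 104 and 197 CPM in NOTCHWT_TCFKO, 195, 188 and 157 CPM in NICD_TCFWT and 541, 622 and 549 CPM in NOTCHWT_TCFWT. Dtx1, a Notch target, stood at 64.7, 165 and 132 CPM in NICD_TCFKO, 0.0793, 0.425 and 0.121 CPM in NOTCHWT_TCFKO, 0.0543, 0.154 and 0.162 CPM in NICD_TCFWT and 81.5, 82.8 and 91.9 CPM in NOTCHWT_TCFWT. Notch1 and Dtx1 were high in NICD_TCFKO and NOTCHWT_TCFWT and low in the other 2 groups, so group names below are those of the labels and no direction below is credited to N1IC or to loss of Tcf7. Counts per gene do not show which exons were deleted.

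Kit and Ly6a, which encode cKit and Sca1, were present in all 12 libraries, Kit at 609.7 to 978 CPM and Ly6a at 33.1 to 148 CPM. The 10 listed markers of LSK cells, stem cells and progenitors summed to 1518 to 2179.9 CPM in NICD_TCFKO, 2428 to 4014 in NOTCHWT_TCFKO, 3213 to 3729 in NICD_TCFWT and 1851 to 2199 in NOTCHWT_TCFWT. Flt3, a progenitor receptor gene, stood at 127, 99.4 and 131 CPM in NICD_TCFKO, 400.3, 279.8 and 656 CPM in NOTCHWT_TCFKO, 569.6, 559 and 515 CPM in NICD_TCFWT and 48.6, 73.9 and 42.3 CPM in NOTCHWT_TCFWT, and Hlf, a stem cell factor gene, was likewise high in NOTCHWT_TCFKO and NICD_TCFWT. The part of these markers in the results below was not tested. Markers of other cells differed in sum. The 12 granulocyte and monocyte markers summed to 357 to 1236 CPM in NICD_TCFKO, 1577 to 9464 in NOTCHWT_TCFKO, 1683 to 6307 in NICD_TCFWT and 68.8 to 125 in NOTCHWT_TCFWT. In bulk libraries, fewer cells of a type and less RNA per cell cannot be told apart. 2 libraries stood apart by the sum of the 10 listed erythroid markers, NOTCHWT_TCFKO replicate 2 (1646 CPM) and NOTCHWT_TCFWT replicate 3 (1026 CPM). Klf1, an erythroid transcription factor, stood at 61.6 CPM in the first and 63.8 CPM in the second. The globin genes were not alike, with Hba-a1 at 104 and 0.654 CPM and Hbb-bs at 171 and 1.54 CPM in the same order. NOTCHWT_TCFKO replicate 2 also had the largest sums of plasma cell markers (1605 CPM, mostly Jchain), B lineage markers (60.5 CPM) and granulocyte and monocyte markers. Xist, which marks female cells, was high in 2, 2, 1 and 3 libraries of NICD_TCFKO, NOTCHWT_TCFKO, NICD_TCFWT and NOTCHWT_TCFWT, so sex was not balanced over the groups, and NOTCHWT_TCFKO replicate 1 held both Xist (2156 CPM) and Y-linked transcripts (157 CPM). Exons of 17 of the 46 genes share bases with another annotated gene, on the opposite strand for 16, and without a stated strand setting such reads cannot be told apart; the 16 are Ccna2, Ccnd1, Ccnd2, Ccnd3, Ccne2, Cdc20, Cdk2, Cdk4, Cdk6, E2f8, Gins2, Kif20a, Mcm7, Plk1, Rb1 and Rbl2, and Top2a shares bases with a gene on its own strand that has 0 counts. Kif20a shares 1271 bases with Cdc23.

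Most of the cell cycle genes stayed within a narrow band. For 37 of 46 (80.4%) the highest group mean was less than 1.5 times the lowest, against 56.6% of all tested genes, and for Ccnd1, the gene of cyclin D1, alone was it more than 2 times (3.90). That background was not matched for level. It includes genes of far lower count, whereas each of the 46 had at least 321 counts in every library. Across the 4 groups, 9 of 46 genes differed by the test for any difference (19.6%), where 29.7% of all tested genes did. They were the replication genes Uhrf1 (adjusted p = 0.00531) and Tyms (0.00557), the G1/S genes Cdk6 (0.00251), Ccnd1 (0.0200), Cdk4 (0.0208), Ccne2 (0.0279) and Rbl1 (0.0430), and the mitotic genes Ccnb1 (0.0287) and Ccna2 (0.0377). Their levels are in the plot of CPM by group. The count was 21 by DESeq2 and 10 by limma-voom. Background shares here and below are those of edgeR with all 12 libraries. Counts by other tools or without a library stand without the share of all tested genes in that setting. Without NICD_TCFWT replicate 1, NICD_TCFKO replicate 2 or NOTCHWT_TCFKO replicate 1 it was 4, 5 and 4, and without NOTCHWT_TCFKO replicate 3 it was 18.

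**Figure D1:**
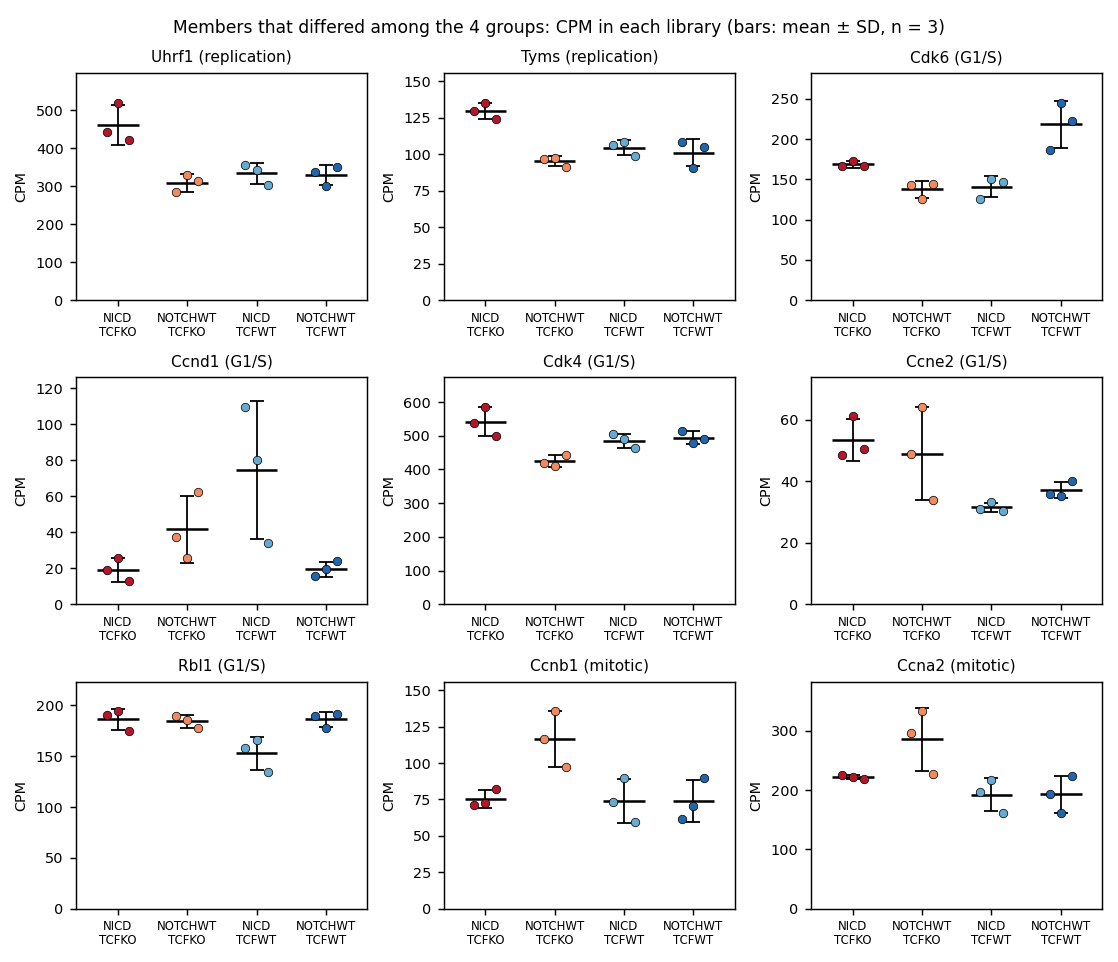
CPM (linear axis from 0) of the 9 genes that differed among the 4 groups, 1 panel per gene, 1 point per library, with the mean and SD of 3 libraries. Uhrf1 and Tyms stand highest in NICD_TCFKO, Ccnb1 and Ccna2 in NOTCHWT_TCFKO, Ccnd1 in NICD_TCFWT and Cdk6 in NOTCHWT_TCFWT.

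The classes had different profiles over the groups. Of the 14 replication genes, 13 had their highest group mean in NICD_TCFKO, whereas of the 18 mitotic genes 8 did and the other 10 were highest in NOTCHWT_TCFKO. All 18 mitotic genes were lowest in a TCFWT group, 8 in NICD_TCFWT and 10 in NOTCHWT_TCFWT. The lowest group of the replication genes was NICD_TCFWT for 7, NOTCHWT_TCFKO for 4 and NOTCHWT_TCFWT for 3. G1/S genes had no common profile, with 7, 4, 2 and 1 of 14 highest in NICD_TCFKO, NOTCHWT_TCFKO, NICD_TCFWT and NOTCHWT_TCFWT. These profiles are a description, and genes of a class are not independent of each other. They stand without the share of all tested genes highest or lowest in each group, so they do not show a profile particular to a class.

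**Figure D2:**
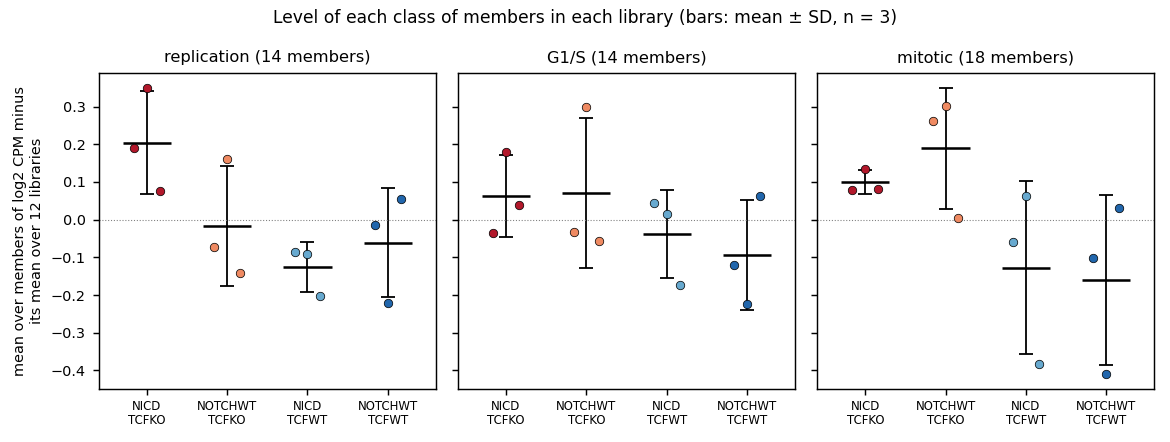
Level of each class in each library: the mean over its genes of log2 CPM minus the gene's mean over 12 libraries, 1 point per library, with the mean and SD of 3 libraries per group. For replication the NICD_TCFKO points run from 0.075 to 0.35 and those of NICD_TCFWT from -0.20 to -0.085, while the mitotic points are spread most within the 2 TCFWT groups (SD 0.23 each, against 0.032 in NICD_TCFKO).

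**Figure D3:**
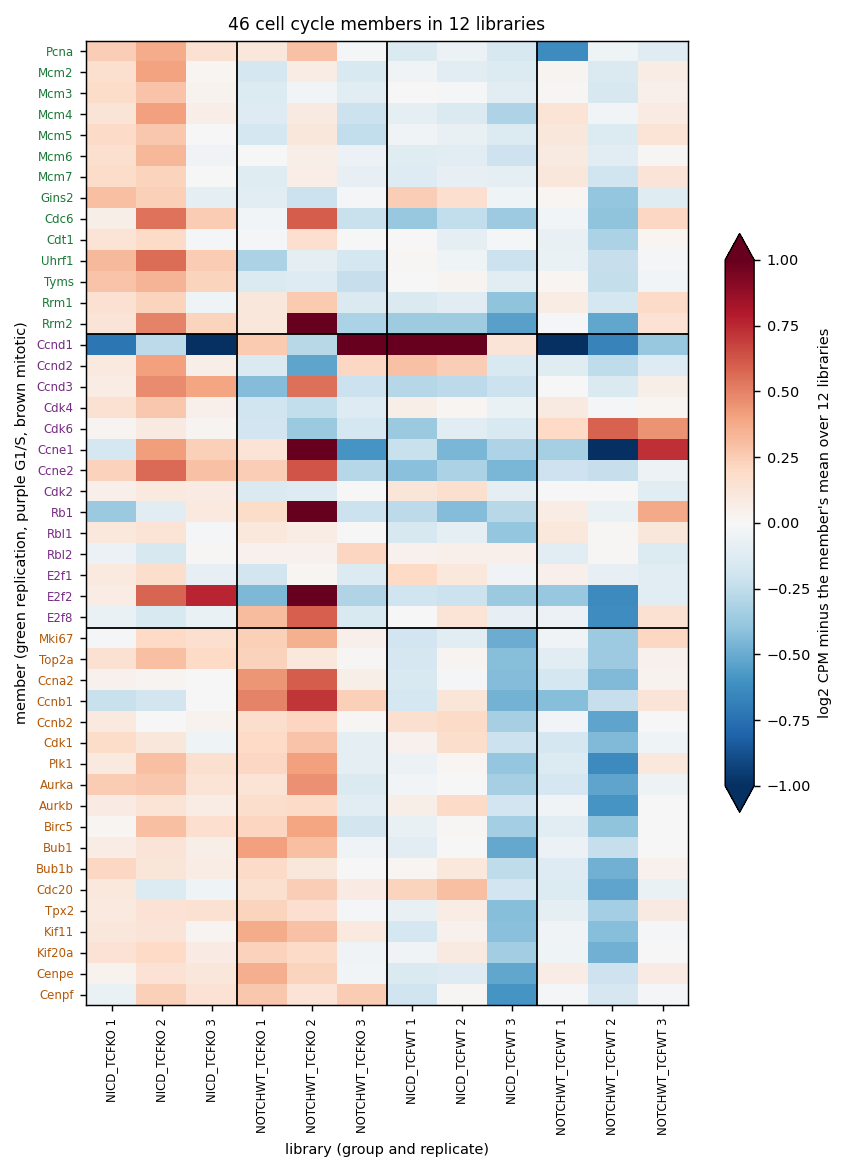
Each of the 46 genes (rows, by class) in each of the 12 libraries (columns, by group), coloured by log2 CPM minus the gene's mean over the libraries, with values beyond 1 in either direction drawn at the end of the scale. NICD_TCFWT replicate 3 and NOTCHWT_TCFWT replicate 2 are below the mean in all 18 mitotic rows, and Ccnd1, Ccne1 and E2f2 are the rows with the widest range.

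Set against NICD_TCFWT, NICD_TCFKO had 5 higher and 1 lower of the 46 genes (6 of 46, 13.0%, where 12.4% of all tested genes were called; 7.25% of all tested genes were higher and 5.15% lower). Library by library, 27 of 46 genes lay above without overlap (19.6% of all tested genes) and 2 below (18.3%). The count moved to 1, 3 and 1 without NICD_TCFWT replicate 1, 2 and 3, to 1 without NICD_TCFKO replicate 2 and to 10 without NOTCHWT_TCFKO replicate 2. Set against NOTCHWT_TCFWT, NOTCHWT_TCFKO had 2 higher and 2 lower (4 of 46, 8.70%, background 21.3%; 10.8% of all tested genes were higher and 10.5% lower), and 9 of 46 genes lay above without overlap (18.4% of all tested genes) and 2 below (18.6%). That count was 1, 1 and 1 without NOTCHWT_TCFWT replicate 1, NOTCHWT_TCFKO replicate 1 and NOTCHWT_TCFKO replicate 2, and 11 without NOTCHWT_TCFKO replicate 3. NICD_TCFWT over NOTCHWT_TCFWT gave 1 higher and 2 lower (3 of 46, 6.52%, background 20.4%; 10.6% of all tested genes were higher and 9.75% lower). Here 2 of 46 genes lay above without overlap (22.3% of all tested genes) and 6 below (21.9%), and 1 call was left without NOTCHWT_TCFWT replicate 1 or NICD_TCFWT replicate 1. In each of these 3 comparisons the share called among the cell cycle genes was near or below the share among all genes.

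NICD_TCFKO over NOTCHWT_TCFKO gave 4 higher and 1 lower (5 of 46, 10.9%, background 18.4%; 10.3% of all tested genes were higher and 8.06% lower). Here 6 of 46 genes lay above without overlap (17.1% of all tested genes) and 3 below (15.7%). Without NICD_TCFKO replicate 1 or 2 or NOTCHWT_TCFKO replicate 1 the count was 3, and without NOTCHWT_TCFKO replicate 2 it was 8. NICD_TCFKO over NOTCHWT_TCFWT, with both labelled changes against neither, gave 2 higher and 0 lower (2 of 46, 4.35%, background 6.30%; 4.01% of all tested genes were higher and 2.30% lower), with 0 calls without NICD_TCFKO replicate 2 and 1 without NICD_TCFKO replicate 3 or NOTCHWT_TCFWT replicate 3. For that pair 18 of 46 genes lay above without overlap (13.8% of all tested genes) and 1 below (12.2%). NOTCHWT_TCFKO over NICD_TCFWT gave 0 calls by edgeR and by limma-voom, 11 by DESeq2 and 15 genes at an unadjusted p under 0.05 (background 2.87% by edgeR; 1.34% of all tested genes were higher and 1.54% lower), and 13 of 46 genes lay above without overlap (13.5% of all tested genes) and 2 below (14.2%). Without NOTCHWT_TCFKO replicate 3 it gave 11. The interaction, which asks whether TCFKO minus TCFWT differs between the NICD and the NOTCHWT libraries, was called for 5 genes in the positive and 2 in the negative direction (7 of 46, 15.2%, background 27.4%; 13.8% of all tested genes were positive and 13.5% negative), for 3 without NOTCHWT_TCFWT replicate 1 and for 11 without NOTCHWT_TCFKO replicate 2. These comparisons share libraries, so their calls are not independent of each other.

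Among the replication genes, Uhrf1 and Tyms rose in NICD_TCFKO against each of the other 3 groups. UHRF1 recognises hemimethylated DNA behind the fork and recruits the maintenance methyltransferase DNMT1, and thymidylate synthase, the product of Tyms, makes the thymidine nucleotide. Of the other 12 replication genes Mcm4 and Mcm3 were called in 1 pairwise comparison each by edgeR and 10 in none. DESeq2 called 5 replication genes in NICD_TCFKO over NICD_TCFWT, where edgeR called 3, and 1 in NOTCHWT_TCFKO over NOTCHWT_TCFWT, where edgeR called 0. The class summed to 5226, 5803 and 4761 CPM in NICD_TCFKO, 4388, 5075 and 4194 CPM in NOTCHWT_TCFKO, 4311, 4305 and 3994 CPM in NICD_TCFWT and 4593, 4107 and 4789 CPM in NOTCHWT_TCFWT. The 3 NICD_TCFKO sums lay above all 3 of NICD_TCFWT and overlapped those of NOTCHWT_TCFKO and NOTCHWT_TCFWT.

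Uhrf1 (ENSMUSG00000001228, chr17:56303321-56323486, plus strand of GRCm38, the mm10 build) stood at 442, 519.7 and 421 CPM in NICD_TCFKO, 284, 331 and 313 CPM in NOTCHWT_TCFKO, 356, 342 and 304 CPM in NICD_TCFWT and 337, 301 and 350.3 CPM in NOTCHWT_TCFWT. All 3 NICD_TCFKO libraries lay above the 9 others. The log2 fold change was 0.58 ± 0.10 (SE, adjusted p = 0.00370) over NOTCHWT_TCFKO, 0.46 ± 0.10 (SE, adjusted p = 0.0147) over NICD_TCFWT and 0.48 ± 0.10 (SE, adjusted p = 0.0199) over NOTCHWT_TCFWT by edgeR. Tyms (ENSMUSG00000025747, chr5:30058202-30073617, minus strand) stood at 129.9, 135 and 124 CPM in NICD_TCFKO, 96.7, 97.3 and 91.2 CPM in NOTCHWT_TCFKO, 106, 109 and 98.4 CPM in NICD_TCFWT and 108, 90.4 and 105 CPM in NOTCHWT_TCFWT, again with every NICD_TCFKO library above the 9 others. Its log2 fold changes were 0.45 ± 0.076 (SE, adjusted p = 0.00314), 0.31 ± 0.076 (SE, adjusted p = 0.0236) and 0.36 ± 0.076 (SE, adjusted p = 0.0211) over the same groups. The call over NOTCHWT_TCFKO held for both genes in all 26 alternatives.

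The other calls of Uhrf1 and Tyms rested on more of the libraries. Over NICD_TCFWT, the Uhrf1 call was lost without NICD_TCFWT replicate 3 (adjusted p = 0.0603, range over alternatives 0.000374 to 0.0892), and the Tyms call without NICD_TCFWT replicate 1, 2 or 3 or NICD_TCFKO replicate 2 (adjusted p = 0.0593 to 0.0911, range 0.00207 to 0.167). Over NOTCHWT_TCFWT, Uhrf1 was lost without NOTCHWT_TCFWT replicate 1 or 2 or NICD_TCFKO replicate 2 (adjusted p = 0.0530 to 0.0592, range 0.000275 to 0.0857), and Tyms without NOTCHWT_TCFWT replicate 3 or NICD_TCFKO replicate 2 or 3 (adjusted p = 0.0522 to 0.0681, range 0.000412 to 0.138).

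T lineage markers also differed between the groups, and their sum was highest in NICD_TCFKO. The 12 listed markers summed to 521 to 1429 CPM in NICD_TCFKO, 35.4 to 61.0 in NOTCHWT_TCFKO, 43.8 to 73.5 in NICD_TCFWT and 405 to 452 in NOTCHWT_TCFWT. Among the defining genes, Cd3g had no count in NICD_TCFWT, and Ptcra had none in NOTCHWT_TCFKO or NICD_TCFWT, whereas NICD_TCFKO had 14.3, 89.8 and 94.6 CPM of Cd3g. Cd3d, Cd3e, Cd3g and Ptcra all had group means under 1 CPM outside NICD_TCFKO, where Cd3e stood at 3.88, 26.0 and 28.6 CPM, so that these 4 were high in the same group as Uhrf1 and Tyms. In NOTCHWT_TCFWT the sum came mostly from Lck, at 210.1, 216 and 182 CPM, and Trbc2, at 146, 121 and 143 CPM. Cd4 went the other way, at 3.08, 3.58 and 3.19 CPM in NICD_TCFKO and 6.13, 9.29 and 7.44 CPM in NOTCHWT_TCFKO. Cd2 also had its highest group mean in NOTCHWT_TCFKO, at 0.352 CPM. The part of T lineage RNA in the Uhrf1 and Tyms results was not tested.

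The helicase genes gave 1 call each for 2 of 6. Mcm4 (ENSMUSG00000022673, chr16:15623897-15637400, minus strand) stood at 387, 470.0 and 370.3 CPM in NICD_TCFKO, 324, 375 and 304 CPM in NOTCHWT_TCFKO, 329.6, 320.2 and 285 CPM in NICD_TCFWT and 388, 346 and 375 CPM in NOTCHWT_TCFWT. It rose in NICD_TCFKO over NICD_TCFWT, with no overlap of the groups, by a log2 fold change of 0.39 ± 0.11 (SE, adjusted p = 0.0392) by edgeR. Leaving out any of 7 libraries ended the call (adjusted p = 0.0546 to 0.154, range 0.00937 to 0.179): NOTCHWT_TCFWT replicate 1 or 3, NICD_TCFWT replicate 1, 2 or 3, NICD_TCFKO replicate 2 or NOTCHWT_TCFKO replicate 1. Mcm3 (ENSMUSG00000041859, chr1:20802968-20820312, minus strand) stood at 519, 559 and 468 CPM in NICD_TCFKO, 417, 449 and 425 CPM in NOTCHWT_TCFKO, 455, 451 and 424 CPM in NICD_TCFWT and 459.8, 409 and 473 CPM in NOTCHWT_TCFWT, and rose in NICD_TCFKO over NOTCHWT_TCFKO by 0.26 ± 0.081 (SE, adjusted p = 0.0460). That call was kept without NICD_TCFKO replicate 3 or NOTCHWT_TCFWT replicate 2 and lost without any of the other 10 libraries (adjusted p = 0.0559 to 0.157, range 0.0194 to 0.157).

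Mcm2 stood at 415, 489 and 376 CPM in NICD_TCFKO, 329, 389.5 and 334 CPM in NOTCHWT_TCFKO, 361, 344 and 337 CPM in NICD_TCFWT and 377, 334 and 390.4 CPM in NOTCHWT_TCFWT, with overlapping groups except that all NICD_TCFKO libraries lay above those of NICD_TCFWT (log2 fold change 0.30 ± 0.11, adjusted p = 0.0891). Mcm5, Mcm6 and Mcm7 ranged over 364 to 522, 605 to 878 and 427 to 571 CPM, and none of the 3 was called in a comparison. Of the loading factors, Cdc6 ranged over 62.7 to 126 CPM and Cdt1 over 81.9 to 116 CPM, and Gins2, a subunit of the GINS complex, stood at 41.6, 40.0 and 31.8 CPM in NICD_TCFKO, 31.3, 29.2 and 33.6 CPM in NOTCHWT_TCFKO, 40.2, 37.9 and 32.8 CPM in NICD_TCFWT and 34.4, 25.9 and 31.2 CPM in NOTCHWT_TCFWT. The exons of Gins2 share 2758 bases with Gse1 on the opposite strand, and without a stated strand setting the reads of the 2 genes cannot be told apart.

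Pcna (ENSMUSG00000027342, chr2:132249162-132253314, minus strand), the sliding clamp, stood at 548, 599 and 513 CPM in NICD_TCFKO, 499.7, 566 and 456 CPM in NOTCHWT_TCFKO, 419, 444 and 414 CPM in NICD_TCFWT and 298, 449 and 424 CPM in NOTCHWT_TCFWT. The TCFKO libraries lay above those of TCFWT in both pairs, by 0.38 ± 0.14 (SE, adjusted p = 0.0987) for NICD_TCFKO over NICD_TCFWT and 0.38 ± 0.14 (SE, adjusted p = 0.0774) for NOTCHWT_TCFKO over NOTCHWT_TCFWT, and neither passed. NOTCHWT_TCFWT replicate 1 was the lowest library.

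Ribonucleotide reductase, which makes deoxynucleotides, has a large subunit encoded by Rrm1 and a small one encoded by Rrm2. Rrm1 stood at 553, 578 and 482 CPM in NICD_TCFKO, 538, 596 and 449 CPM in NOTCHWT_TCFKO, 450.2, 458 and 375 CPM in NICD_TCFWT and 524, 439 and 566 CPM in NOTCHWT_TCFWT, and Rrm2 at 160.2, 206 and 171 CPM in NICD_TCFKO, 159, 294 and 117 CPM in NOTCHWT_TCFKO, 114, 114 and 101 CPM in NICD_TCFWT and 144, 102 and 162 CPM in NOTCHWT_TCFWT. Both were highest in NOTCHWT_TCFKO replicate 2, a library high in erythroid, plasma cell, B lineage, granulocyte and monocyte markers. In both genes all NICD_TCFKO libraries lay above all of NICD_TCFWT. NOTCHWT_TCFKO over NICD_TCFWT gave 0.30 ± 0.13 (SE, adjusted p = 0.206) for Rrm1 and 0.79 ± 0.30 (SE, adjusted p = 0.162) for Rrm2, the 2 smallest p of the class there, and NICD_TCFKO over NICD_TCFWT gave 0.71 ± 0.29 (SE, adjusted p = 0.143) for Rrm2, none of them called.

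In the comparison of NICD_TCFKO with NICD_TCFWT all 14 replication genes had a positive log2 fold change, with a median of 0.31 where the median of all tested genes was 0.00, and 11 of 14 had an unadjusted p under 0.05. In 12 of 14 every NICD_TCFKO library lay above every NICD_TCFWT library, as in 19.6% of all tested genes. Against NOTCHWT_TCFKO and NOTCHWT_TCFWT the medians were 0.22 and 0.22, with 13 and 14 of 14 positive. NOTCHWT_TCFKO over NOTCHWT_TCFWT, in contrast, had a median of -0.028, with 6 positive and 8 negative and 0 calls by edgeR (1 by DESeq2, 0 by limma-voom and 1 at an unadjusted p under 0.05). Pcna and Cdt1 had the smallest p there, Cdt1 with 101, 115 and 102 CPM in NOTCHWT_TCFKO, against 96.7, 81.9 and 103 CPM in NOTCHWT_TCFWT. NICD_TCFWT over NOTCHWT_TCFWT had a median of -0.10 and 0 calls by edgeR (0 by DESeq2, 0 by limma-voom and 1 at an unadjusted p under 0.05), Mcm4 and Gins2 having the smallest p (0.139 and 0.168 adjusted).

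**Figure D4:**
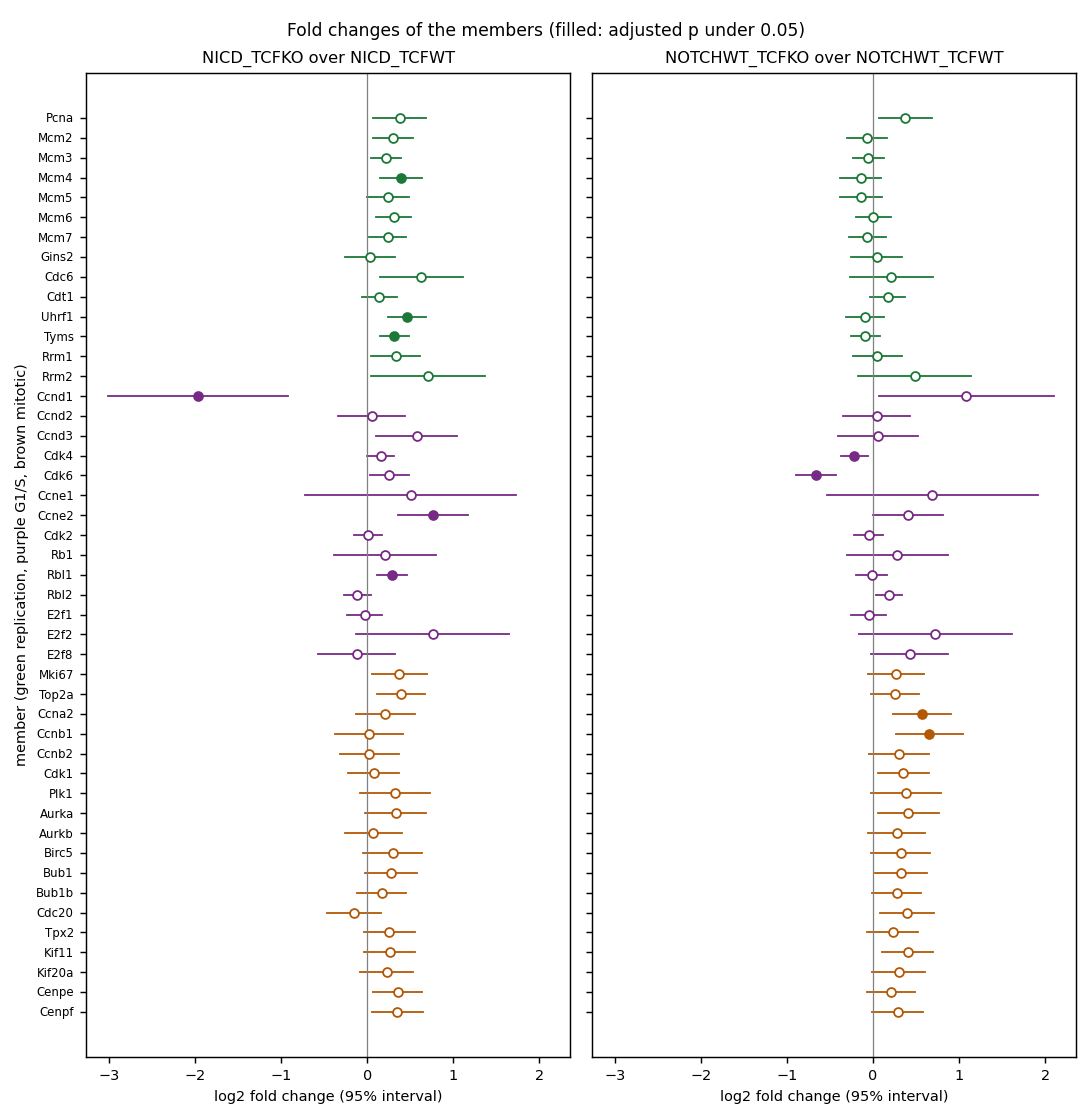
Log2 fold change with its 95% interval for each of the 46 genes, NICD_TCFKO over NICD_TCFWT at left and NOTCHWT_TCFKO over NOTCHWT_TCFWT at right; filled points passed the test. All 14 replication points lie above 0 at left and 6 of 14 at right, all 18 mitotic points lie above 0 at right, and Ccnd1 has the widest distance between the panels.

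The difference between those differences was itself called for 3 of 14 replication genes (21.4%, below the 27.4% of all tested genes). The interaction was 0.56 ± 0.14 (SE, adjusted p = 0.0147) for Uhrf1, 0.40 ± 0.11 (SE, adjusted p = 0.0181) for Tyms and 0.54 ± 0.15 (SE, adjusted p = 0.0241) for Mcm4 on the log2 scale by edgeR, and the class median was 0.31 with 12 of 14 positive. Without NOTCHWT_TCFWT replicate 1 the Tyms call was lost (adjusted p = 0.0581, range 0.00458 to 0.113). The Mcm4 call was lost without NOTCHWT_TCFWT replicate 1 or 3, NICD_TCFWT replicate 3, NICD_TCFKO replicate 2 or NOTCHWT_TCFKO replicate 1 or 3 (adjusted p = 0.0512 to 0.0716, range 0.00895 to 0.0996).

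The start-proximal DNA of these genes is shown because E2F sites are a textbook feature of replication promoters. The RefSeq table for GRCm38.p6 matched 36 of the 46 genes, with 40 start sites; it holds no entry for Aurkb, Ccna2, Ccnd1, Ccnd2, Ccne2, Gins2, Kif20a, Mcm4, Rb1 and Tpx2. The 250 bases before each start were searched on both strands for E2F-like motifs (TTTGGCGC, TTTCGCGC, TTTCCCGC and TTTGCCGC), for the CHR element of late cell cycle genes (TTTGAA or its variant TTCGAA) and for CCAAT, the motif of NF-Y. E2F-like motifs on opposite strands can overlap, and a match is a description of letters, not a bound site. An E2F-like motif was present in 5 of 12 replication genes (41.7%), 2 of 10 G1/S genes (20%) and 1 of 14 mitotic genes (7.14%), against 2.16% of all 27025 genes in the table. Shown 5′ to 3′ are Uhrf1, the called replication gene with the smallest p that holds a motif (chr17:56304063-56304312, plus strand, the second of its 2 listed starts), and Mcm6, which has the most E2F-like motifs of the 46 (chr1:128359706-128359955, minus strand). Capitals mark motifs: TTTCGCGC and 2 CCAAT in Uhrf1, and 3 E2F-like motifs, of which 2 overlap, with 2 CCAAT on the minus strand in Mcm6. Tyms has none of these motifs in its window.
Uhrf1: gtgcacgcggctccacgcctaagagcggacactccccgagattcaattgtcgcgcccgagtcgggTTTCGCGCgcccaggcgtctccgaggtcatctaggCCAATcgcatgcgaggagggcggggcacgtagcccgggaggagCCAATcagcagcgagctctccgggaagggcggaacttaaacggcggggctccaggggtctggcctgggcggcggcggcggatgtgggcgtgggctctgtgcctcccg
Mcm6: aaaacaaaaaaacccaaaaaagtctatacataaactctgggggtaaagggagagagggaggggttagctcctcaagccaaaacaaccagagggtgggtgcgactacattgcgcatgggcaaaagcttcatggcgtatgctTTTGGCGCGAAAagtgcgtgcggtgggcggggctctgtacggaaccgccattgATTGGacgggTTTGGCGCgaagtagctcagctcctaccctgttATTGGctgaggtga

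Of 39 other replication genes, 4 rose in NICD_TCFKO over NICD_TCFWT and 0 fell (10.3%, background 12.4%), with a median log2 fold change of 0.20. Given as log2 fold changes with SE by edgeR, they included Cdc45 (0.44 ± 0.099, adjusted p = 0.0176), the helicase cofactor, Gins3 (0.41 ± 0.10, adjusted p = 0.0265) and the origin recognition subunit Orc4 (0.35 ± 0.10, adjusted p = 0.0485). Cdc45 stood at 76.0, 83.4 and 75.2 CPM in NICD_TCFKO, against 59.6, 59.8 and 53.7 CPM in NICD_TCFWT, without overlap. Over NOTCHWT_TCFKO 2 rose (5.13%, background 18.4%), the clamp loader subunit Rfc2 (0.27 ± 0.08, adjusted p = 0.0371) and the origin-firing kinase gene Cdc7 (0.34 ± 0.10, adjusted p = 0.0436). Over NOTCHWT_TCFWT 1 rose (2.56%, background 6.30%), the polymerase subunit Pold2 (0.42 ± 0.11, adjusted p = 0.0486). NOTCHWT_TCFKO over NOTCHWT_TCFWT gave 1 higher, Rpa3 (0.36 ± 0.09, adjusted p = 0.0158), and 1 lower, Rfc2 (-0.40 ± 0.08, adjusted p = 0.00544), together 5.13% (background 21.3%). NICD_TCFWT over NOTCHWT_TCFWT gave 1 higher, Pold2 (0.57 ± 0.11, adjusted p = 0.00531), and 1 lower, Orc4 (-0.39 ± 0.10, adjusted p = 0.0222), together 5.13% (background 20.4%). NOTCHWT_TCFKO over NICD_TCFWT gave 1 higher (2.56%, background 2.87%), Rpa3 (0.40 ± 0.09, adjusted p = 0.0442). The interaction was called for 3 of the 39 (7.69%, background 27.4%), Orc4 (0.50 ± 0.15, adjusted p = 0.0251), Cdc7 (0.54 ± 0.15, adjusted p = 0.0194) and Rfc2 (0.36 ± 0.11, adjusted p = 0.0330), all positive.

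Among the G1/S genes the changes were in single regulators and in different groups. Ccnd1 rose in NICD_TCFWT over NOTCHWT_TCFWT and was lower in NICD_TCFKO than in NICD_TCFWT. Cdk6, the kinase partner of D-type cyclins with a known role in the exit of blood stem cells from rest, was lower in NICD_TCFWT and in NOTCHWT_TCFKO than in NOTCHWT_TCFWT. Cdk4, its relative, was lowest in NOTCHWT_TCFKO. The cyclin E gene Ccne2 and the retinoblastoma-related gene Rbl1 rose in NICD_TCFKO over NICD_TCFWT.

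Ccnd1 (ENSMUSG00000070348, chr7:144929931-144939925, minus strand) stood at 18.8, 25.9 and 12.7 CPM in NICD_TCFKO, 37.1, 25.5 and 62.1 CPM in NOTCHWT_TCFKO, 109, 80.0 and 33.9 CPM in NICD_TCFWT and 15.5, 19.4 and 23.9 CPM in NOTCHWT_TCFWT. NICD_TCFWT was highest and most spread, its replicate 3 lying below 2 of the NOTCHWT_TCFKO libraries, while NICD_TCFKO and NOTCHWT_TCFWT overlapped. The log2 fold change was -1.96 ± 0.47 (SE, adjusted p = 0.0249) for NICD_TCFKO over NICD_TCFWT and 1.92 ± 0.47 (SE, adjusted p = 0.0178) for NICD_TCFWT over NOTCHWT_TCFWT by edgeR, and 1.08 ± 0.46 (SE, adjusted p = 0.122), not called, for NOTCHWT_TCFKO over NOTCHWT_TCFWT. The first call was lost without NICD_TCFWT replicate 1 or 2 or any NICD_TCFKO replicate (adjusted p = 0.0507 to 0.0807, range 2.91e-05 to 0.0807) and the second without NOTCHWT_TCFWT replicate 1 or 2 or NICD_TCFWT replicate 1 (adjusted p = 0.0530 to 0.0653, range 2.71e-05 to 0.0894). Ccnd1 was higher in NICD_TCFWT replicates 1 and 2, which are low in Xist, than in replicate 3, which is high, and with Xist as a term NICD_TCFWT over NOTCHWT_TCFWT gave a log2 fold change of 1.26 (adjusted p = 0.0894), not called. The interaction of -3.05 ± 0.65 (SE, adjusted p = 0.00725) was called in all 25 alternatives. Exons of Ccnd1 share 1100 bases with LTO1 on the opposite strand.

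Per kb of exon, Ccnd2 had the largest mean share of the 3 D-type cyclin genes in every group. Ccnd1 made up 6.70% ± 1.73 of the D-type cyclin level per kb in NICD_TCFKO, 16.1% ± 5.65 in NOTCHWT_TCFKO, 24.2% ± 8.69 in NICD_TCFWT and 8.70% ± 1.66 in NOTCHWT_TCFWT (SD, n = 3 each). In NICD_TCFWT it exceeded Ccnd3 in 2 of 3 libraries, with Ccnd3 at 27.4% ± 6.68. Ccnd2 stood at 274, 340.4 and 267 CPM in NICD_TCFKO, 232, 178 and 295 CPM in NOTCHWT_TCFKO, 314, 304 and 231 CPM in NICD_TCFWT and 236, 215 and 234 CPM in NOTCHWT_TCFWT, and no comparison called it by edgeR. Ccnd3 stood at 182, 239.7 and 227 CPM in NICD_TCFKO, 128, 253 and 149 CPM in NOTCHWT_TCFKO, 142, 145 and 149 CPM in NICD_TCFWT and 174, 156 and 180.3 CPM in NOTCHWT_TCFWT, also without a call. Its highest library, NOTCHWT_TCFKO replicate 2, is one of the 2 high in erythroid markers and is also high in plasma cell, B lineage, granulocyte and monocyte markers. Cdk4 was the most abundant of these 5 genes per kb, at 167 ± 13.1, 131 ± 5.40, 149 ± 6.48 and 152 ± 5.72 CPM per kb in NICD_TCFKO, NOTCHWT_TCFKO, NICD_TCFWT and NOTCHWT_TCFWT, and Cdk6 was at 12.1 ± 0.288, 9.84 ± 0.735, 10.1 ± 0.958 and 15.6 ± 2.11 CPM per kb in the same groups (SD, n = 3 each).

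**Figure D5:**
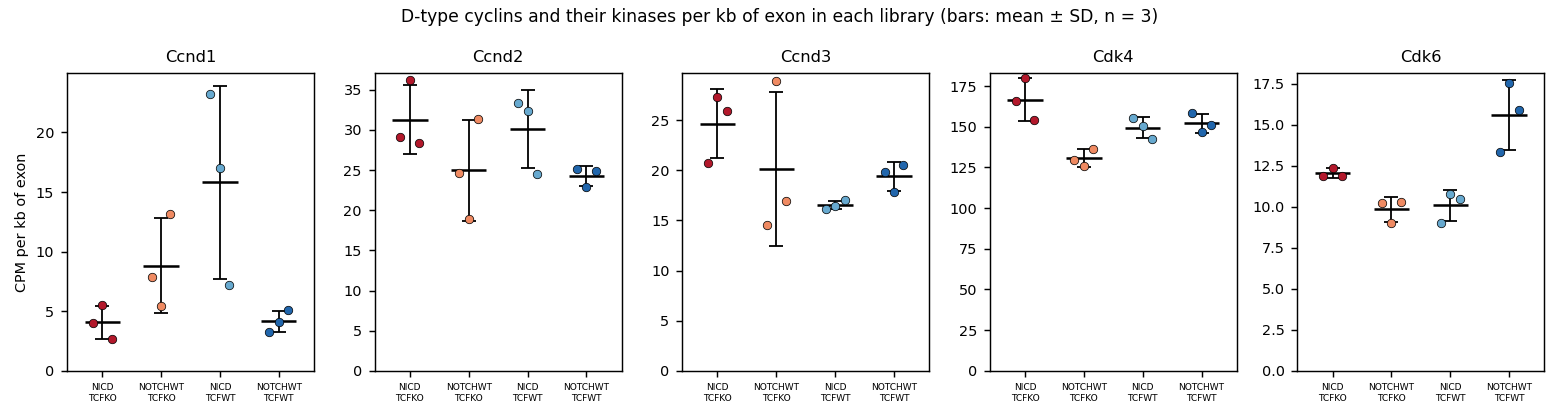
CPM per kb of exon (linear axis from 0) of the 3 D-type cyclin genes and of Cdk4 and Cdk6, 1 point per library, with the mean and SD of 3 libraries per group. Ccnd1 is highest in NICD_TCFWT, Cdk6 in NOTCHWT_TCFWT, and Cdk4 is lowest in NOTCHWT_TCFKO.

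Cdk6 (ENSMUSG00000040274, chr5:3341485-3531008, plus strand) stood at 166, 173 and 167 CPM in NICD_TCFKO, 143, 126 and 144 CPM in NOTCHWT_TCFKO, 126, 151 and 147 CPM in NICD_TCFWT and 187, 245 and 223 CPM in NOTCHWT_TCFWT. NOTCHWT_TCFWT lay above the 9 other libraries, and NICD_TCFKO above NOTCHWT_TCFKO and NICD_TCFWT. It fell in NOTCHWT_TCFKO with a log2 fold change of -0.66 ± 0.10 (SE, adjusted p = 0.00145) and in NICD_TCFWT with -0.63 ± 0.10 (SE, adjusted p = 0.00229), both over NOTCHWT_TCFWT, and these 2 calls held in all 26 alternatives, which include DESeq2 and limma-voom. NICD_TCFKO over NOTCHWT_TCFWT gave -0.37 ± 0.10 (SE, adjusted p = 0.0606) and NICD_TCFKO over NOTCHWT_TCFKO 0.29 ± 0.10 (SE, adjusted p = 0.0752), neither called. The interaction, 0.92 ± 0.15 (SE, adjusted p = 0.00116), held in all 25.

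Cdk4 (ENSMUSG00000006728, chr10:127063534-127067920, plus strand) stood at 539, 585 and 500.4 CPM in NICD_TCFKO, 421, 409 and 444 CPM in NOTCHWT_TCFKO, 504, 489.6 and 463 CPM in NICD_TCFWT and 515, 478 and 491 CPM in NOTCHWT_TCFWT. The NOTCHWT_TCFKO libraries lay below the other 9. It was higher in NICD_TCFKO than in NOTCHWT_TCFKO, with a log2 fold change of 0.35 ± 0.071 (SE, adjusted p = 0.00797), a call kept without any single library, and it fell in NOTCHWT_TCFKO with -0.22 ± 0.071 (SE, adjusted p = 0.0498) over NOTCHWT_TCFWT. The second call was kept without NICD_TCFKO replicate 2 or 3 and lost without any of the other 10 libraries (adjusted p = 0.0522 to 0.180, range 0.0136 to 0.180). The interaction was 0.38 ± 0.10 (SE, adjusted p = 0.0179), and 0.33 without NOTCHWT_TCFWT replicate 1 (adjusted p = 0.0516, range 0.00130 to 0.0516). Macrophage markers moved with this group: 10 listed markers summed to 74.6 to 139 CPM in NICD_TCFKO, 357 to 573 in NOTCHWT_TCFKO, 27.5 to 93.6 in NICD_TCFWT and 52.1 to 103 in NOTCHWT_TCFWT. Within that list Csf1r was highest on average in NICD_TCFKO, and Marco reached at most 0.770 CPM, in NOTCHWT_TCFKO, and was at 0 elsewhere. The sum of the 5 NK markers was highest in NOTCHWT_TCFWT, as Cdk6 was. It ran over 816 to 1578 CPM there, mostly from Gzmb, and over 359 to 490.0 in NICD_TCFKO. NOTCHWT_TCFKO had 101 to 145 and NICD_TCFWT 131 to 160.1. The single markers were not alike. Gzmb and Nkg7 had their highest group mean in NOTCHWT_TCFWT, whereas Klrb1c was lowest there (0.956 CPM) and highest in NICD_TCFWT (12.3 CPM). Gzma was highest in NICD_TCFKO (80.4 CPM, against 19.6 in NOTCHWT_TCFWT), and Ncr1 had group means of 0.416 to 0.659 CPM. The part of either list in the Cdk4 and Cdk6 results was not tested.

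Ccne2 (ENSMUSG00000028212, chr4:11191351-11204779, plus strand) stood at 48.4, 61.3 and 50.6 CPM in NICD_TCFKO, 49.0, 64.1 and 33.9 CPM in NOTCHWT_TCFKO, 31.0, 33.2 and 30.2 CPM in NICD_TCFWT and 35.9, 35.2 and 40.0 CPM in NOTCHWT_TCFWT. NICD_TCFKO lay above both TCFWT groups, and NOTCHWT_TCFKO lay above NICD_TCFWT and overlapped the other 2 groups. The rise over NICD_TCFWT was 0.76 ± 0.19 (SE, adjusted p = 0.0241) by edgeR, lost without NICD_TCFWT replicate 1, 2 or 3 or NICD_TCFKO replicate 2 or 3 (adjusted p = 0.0571 to 0.105, range 0.00207 to 0.185). NOTCHWT_TCFKO over NICD_TCFWT gave 0.64 ± 0.19 (SE, adjusted p = 0.0895) and NICD_TCFKO over NOTCHWT_TCFWT 0.53 ± 0.19 (SE, adjusted p = 0.123), neither called. Exons of Ccne2 share 609 bases with Ints8 on the opposite strand.

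The 3 pocket protein genes hold E2F factors in check. Rb1 stood at 47.4, 56.6 and 65.8 CPM in NICD_TCFKO, 69.8, 124 and 53.0 CPM in NOTCHWT_TCFKO, 51.1, 45.4 and 50.6 CPM in NICD_TCFWT and 64.7, 58.5 and 79.7 CPM in NOTCHWT_TCFWT, with no call and its highest value in NOTCHWT_TCFKO replicate 2. Rbl1, for p107, which is itself an E2F target (ENSMUSG00000027641, chr2:157145893-157204534, minus strand), stood at 190.5, 194 and 175 CPM in NICD_TCFKO, 189.9, 186 and 178 CPM in NOTCHWT_TCFKO, 158, 166 and 135 CPM in NICD_TCFWT and 189.7, 178 and 192 CPM in NOTCHWT_TCFWT. The NICD_TCFWT libraries lay below the other 9. The log2 fold change was -0.29 ± 0.081 (SE, adjusted p = 0.0293) for NICD_TCFWT over NOTCHWT_TCFWT and 0.29 ± 0.081 (SE, adjusted p = 0.0419) for NICD_TCFKO over NICD_TCFWT, both called, and 0.27 ± 0.081 (SE, adjusted p = 0.0945) for NOTCHWT_TCFKO over NICD_TCFWT, not called. The fall was lost without NOTCHWT_TCFWT replicate 1 or 3 or NICD_TCFWT replicate 1 or 3 (adjusted p = 0.0693 to 0.0924, range 0.00599 to 0.200), and the rise was kept without NOTCHWT_TCFWT replicate 2, NICD_TCFWT replicate 2 or NOTCHWT_TCFKO replicate 2 or 3 and lost without any of the other 8 (adjusted p = 0.0522 to 0.131, range 0.00924 to 0.161). Rbl2, for p130, the pocket protein of resting cells, stood at 121, 113 and 127 CPM in NICD_TCFKO, 130.2, 130.3 and 147 CPM in NOTCHWT_TCFKO, 130.4, 131 and 131 CPM in NICD_TCFWT and 117, 127 and 115 CPM in NOTCHWT_TCFWT. Its interaction was -0.30 ± 0.099 (SE, adjusted p = 0.0451), lost without 9 of 12 libraries, all but NICD_TCFKO replicate 3, NOTCHWT_TCFKO replicate 1 and NOTCHWT_TCFWT replicate 2 (adjusted p = 0.0510 to 0.103, range 0.0122 to 0.138).

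The promoter of Rbl1 is shown for its E2F-like motif close to the start (chr2:157204535-157204784, minus strand), which the capitals mark as TTTCGCGC, 18 to 11 bases before it. A CHR element was present in 3 of 10 G1/S genes (30%) and CCAAT in 4 of 10 (40%), against 19.6% and 37.5% of all genes in the table.
Rbl1: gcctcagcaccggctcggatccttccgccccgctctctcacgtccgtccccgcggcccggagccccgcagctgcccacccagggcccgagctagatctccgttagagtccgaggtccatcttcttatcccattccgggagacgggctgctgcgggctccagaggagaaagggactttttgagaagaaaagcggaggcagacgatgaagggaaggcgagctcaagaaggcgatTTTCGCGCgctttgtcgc

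E2f2 and Ccne1 were each highest in NOTCHWT_TCFKO replicate 2, and these 2 genes were picked after their values were seen. That library had the largest erythroid sum and also the largest plasma cell, B lineage, and granulocyte and monocyte sums. E2f2, an activator E2F, stood at 42.0, 59.9 and 67.9 CPM in NICD_TCFKO, 29.2, 93.3 and 32.4 CPM in NOTCHWT_TCFKO, 34.8, 34.4 and 31.0 CPM in NICD_TCFWT and 30.8, 25.7 and 37.2 CPM in NOTCHWT_TCFWT. Ccne1, the other cyclin E gene, stood at 19.0, 28.7 and 25.3 CPM in NICD_TCFKO, 23.6, 64.7 and 14.3 CPM in NOTCHWT_TCFKO, 18.4, 15.7 and 17.4 CPM in NICD_TCFWT and 17.1, 10.6 and 35.8 CPM in NOTCHWT_TCFWT. NOTCHWT_TCFKO replicate 2 exceeded both other libraries of its group in both genes, and NOTCHWT_TCFWT replicate 3 did so in its own group, while the next highest E2f2 values were those of the 3 NICD_TCFKO libraries. The 10 erythroid markers summed to 295 to 450.0 CPM in NICD_TCFKO, 299.7 to 1646 in NOTCHWT_TCFKO, 184 to 343 in NICD_TCFWT and 237 to 1026 in NOTCHWT_TCFWT. Given without the share of all tested genes, 13 of 14 replication genes and 10 of 18 mitotic genes in NOTCHWT_TCFKO were highest in replicate 2. In NOTCHWT_TCFWT 9 of 14 and 18 of 18 were highest in replicate 3. Without these 2 libraries the counts called were 9 for NICD_TCFKO over NICD_TCFWT, 2 for NOTCHWT_TCFKO over NOTCHWT_TCFWT and 8 for any difference. The part of erythroid RNA, or of RNA of these other cell types, in the G1/S levels was not tested. The remaining genes, Cdk2 (139 to 172 CPM), E2f1 (51.2 to 66.7 CPM) and the repressor E2f8 (68.1 to 159 CPM), were not called in any comparison by edgeR.

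Of 16 other G1/S genes 15 were tested. NICD_TCFKO over NOTCHWT_TCFKO had 4 higher and 0 lower (26.7%, background 18.4%): the phosphatase gene Cdc25a (0.37 ± 0.085, adjusted p = 0.0149), E2f6 (0.24 ± 0.063, adjusted p = 0.0255), Lin37 of the DREAM complex (0.34 ± 0.092, adjusted p = 0.0280) and Skp2, which directs degradation of the inhibitor p27 (0.39 ± 0.11, adjusted p = 0.0384). Cdc25a stood at 111, 125 and 113 CPM in NICD_TCFKO, 91.7, 99.6 and 79.2 CPM in NOTCHWT_TCFKO, 94.0, 92.1 and 86.0 CPM in NICD_TCFWT and 99.4, 95.4 and 102 CPM in NOTCHWT_TCFWT, with NICD_TCFKO above all others. It also rose over NICD_TCFWT (0.36 ± 0.085, adjusted p = 0.0216), the 1 call of that comparison (6.67%, background 12.4%). Skp2 rose in NICD_TCFKO over NOTCHWT_TCFWT (0.56 ± 0.11, adjusted p = 0.0177), the 1 call there (6.67%, background 6.30%). E2f6 fell in NOTCHWT_TCFKO over NOTCHWT_TCFWT (-0.25 ± 0.063, adjusted p = 0.0177), again the 1 call (6.67%, background 21.3%). NICD_TCFWT over NOTCHWT_TCFWT had 0 calls by edgeR (0 by DESeq2, 0 by limma-voom and 0 at an unadjusted p under 0.05), and so had NOTCHWT_TCFKO over NICD_TCFWT (1 by DESeq2, 0 by limma-voom and 4 at an unadjusted p under 0.05). The interaction was called for Cdc25a alone (0.49 ± 0.12, adjusted p = 0.0117), which is 6.67% (background 27.4%).

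Among the mitotic genes, the cyclin genes Ccnb1 and Ccna2 rose in NOTCHWT_TCFKO over NOTCHWT_TCFWT (11.1%, background 21.3%), and the other 16 were not called in any pairwise comparison by edgeR. DESeq2 called 5 mitotic genes in that comparison, 7 in NOTCHWT_TCFKO over NICD_TCFWT and 1 each in NICD_TCFKO over NICD_TCFWT and over NOTCHWT_TCFKO. Cyclin B1 with CDK1 starts mitosis, and cyclin A2 serves both S phase and entry into mitosis. The class summed to 4132, 4432 and 4244 CPM in NICD_TCFKO, 4683, 4723 and 3977 CPM in NOTCHWT_TCFKO, 3608, 3959 and 2929 CPM in NICD_TCFWT and 3687, 2994 and 4102 CPM in NOTCHWT_TCFWT. NICD_TCFKO lay above all libraries of both TCFWT groups with little spread, whereas NOTCHWT_TCFKO overlapped NOTCHWT_TCFWT through the 4102 CPM of NOTCHWT_TCFWT replicate 3.

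Ccnb1 (ENSMUSG00000041431, chr13:100778650-100786570, minus strand) stood at 70.8, 72.6 and 82.1 CPM in NICD_TCFKO, 116, 136 and 97.5 CPM in NOTCHWT_TCFKO, 73.2, 89.6 and 59.5 CPM in NICD_TCFWT and 61.5, 70.4 and 90.0 CPM in NOTCHWT_TCFWT. The 3 NOTCHWT_TCFKO libraries lay above the other 9. The log2 fold change was 0.65 ± 0.18 (SE, adjusted p = 0.0242) for NOTCHWT_TCFKO over NOTCHWT_TCFWT and -0.63 ± 0.18 (SE, adjusted p = 0.0329) for NICD_TCFKO over NOTCHWT_TCFKO by edgeR, and 0.65 ± 0.18 (SE, adjusted p = 0.0733), not called, for NOTCHWT_TCFKO over NICD_TCFWT. The rise was lost without NOTCHWT_TCFWT replicate 1 or 2 or NOTCHWT_TCFKO replicate 1 or 2 (adjusted p = 0.0612 to 0.0904, range 0.00266 to 0.0904). The fall in NICD_TCFKO over NOTCHWT_TCFKO was lost without any 1 NICD_TCFKO replicate or NOTCHWT_TCFKO replicate 1 or 2 (adjusted p = 0.0611 to 0.114, range 0.00441 to 0.114).

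Ccna2 (ENSMUSG00000027715, chr3:36564865-36572150, minus strand) stood at 225, 223 and 219 CPM in NICD_TCFKO, 297, 333 and 228 CPM in NOTCHWT_TCFKO, 197, 217 and 162 CPM in NICD_TCFWT and 193, 161 and 224 CPM in NOTCHWT_TCFWT. NOTCHWT_TCFKO lay above the other 9 libraries, its replicate 3 only narrowly. It rose over NOTCHWT_TCFWT by 0.57 ± 0.16 (SE, adjusted p = 0.0245), lost without the same 4 libraries as Ccnb1 (adjusted p = 0.0669 to 0.0946, range 0.00298 to 0.0946), while NICD_TCFKO over NOTCHWT_TCFKO gave -0.36 ± 0.15 (SE, adjusted p = 0.129). Exons of Ccna2 share 510 bases with Exosc9 on the opposite strand. Without the 2 libraries high in erythroid markers the log2 fold change over NOTCHWT_TCFWT was 0.55 for Ccna2 (adjusted p = 0.0617), and the rise of Ccnb1 stayed called, while its fall in NICD_TCFKO over NOTCHWT_TCFKO was lost (-0.50, adjusted p = 0.0819), as was its call for any difference (0.0700). The granulocyte, monocyte, macrophage and erythroid sums given above were all higher in some or all NOTCHWT_TCFKO libraries than in NOTCHWT_TCFWT, and their part in the cyclin results was not tested.

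Mki67, the gene of the proliferation marker Ki-67, stood at 921, 1063 and 1037 CPM in NICD_TCFKO, 1091, 1184 and 961 CPM in NOTCHWT_TCFKO, 812, 857 and 659 CPM in NICD_TCFWT and 905, 721 and 1068 CPM in NOTCHWT_TCFWT. All TCFKO libraries lay above all of NICD_TCFWT, and NOTCHWT_TCFWT overlapped the other 3 groups. No comparison called it by edgeR, with 0.38 ± 0.15 (SE, adjusted p = 0.118) for NICD_TCFKO over NICD_TCFWT and 0.26 ± 0.15 (SE, adjusted p = 0.227) for NOTCHWT_TCFKO over NOTCHWT_TCFWT. Top2a, topoisomerase II, stood at 1019, 1126 and 1048 CPM in NICD_TCFKO, 1075, 986 and 923 CPM in NOTCHWT_TCFKO, 815, 933 and 681 CPM in NICD_TCFWT and 846, 710.2 and 941 CPM in NOTCHWT_TCFWT. NICD_TCFKO lay above both TCFWT groups, by 0.39 ± 0.13 (SE, adjusted p = 0.0658) over NICD_TCFWT and 0.35 ± 0.13 (SE, adjusted p = 0.130) over NOTCHWT_TCFWT, without passing. The 95% intervals of these Top2a values, 0.12 to 0.67 and 0.075 to 0.63, exclude 0 before adjustment.

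Next in order of p came a kinetochore motor, a spindle kinase and an activator of anaphase. Cenpe, the motor, stood at 133, 144 and 141 CPM in NICD_TCFKO, 168, 152 and 128 CPM in NOTCHWT_TCFKO, 117, 119 and 90.6 CPM in NICD_TCFWT and 137, 113 and 138 CPM in NOTCHWT_TCFWT. Aurka, the kinase, stood at 68.1, 69.0 and 62.8 CPM in NICD_TCFKO, 62.8, 78.6 and 51.7 CPM in NOTCHWT_TCFKO, 56.0, 57.2 and 45.5 CPM in NICD_TCFWT and 50.8, 39.6 and 55.2 CPM in NOTCHWT_TCFWT. Cdc20, the activator, stood at 100.4, 84.7 and 90.4 CPM in NICD_TCFKO, 104, 110.4 and 98.7 CPM in NOTCHWT_TCFKO, 109, 115 and 81.5 CPM in NICD_TCFWT and 84.8, 64.6 and 89.0 CPM in NOTCHWT_TCFWT. For Cenpe and Aurka all NICD_TCFKO libraries lay above all of NICD_TCFWT, and Cdc20 had its lowest group mean in NOTCHWT_TCFWT. Cenpe gave 0.35 ± 0.13 (SE, adjusted p = 0.0950) for NICD_TCFKO over NICD_TCFWT, Aurka 0.46 ± 0.16 (SE, adjusted p = 0.124) for NICD_TCFKO over NOTCHWT_TCFWT and Cdc20 0.36 ± 0.14 (SE, adjusted p = 0.104) for NICD_TCFWT over NOTCHWT_TCFWT, none called. In that last comparison Cenpe gave -0.24 ± 0.13 (SE, adjusted p = 0.208), and NOTCHWT_TCFKO over NICD_TCFWT gave 0.57 ± 0.16 (SE, adjusted p = 0.0716) for Ccna2. The remaining 11 genes had group means within 1.4 times of each other. Among them the kinesins Kif11 and Kif20a ranged over 204 to 353 and 82.8 to 136 CPM, the checkpoint genes Bub1 and Bub1b over 71.8 to 136 and 129 to 209 CPM, the kinase genes Cdk1, Plk1 and Aurkb over 98.5 to 163, 40.6 to 83.6 and 72.2 to 124 CPM, and Ccnb2, Birc5, Tpx2 and Cenpf over 68.8 to 116, 65.0 to 113, 134 to 210.0 and 92.6 to 168 CPM.

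In NOTCHWT_TCFKO over NOTCHWT_TCFWT all 18 mitotic genes had a positive log2 fold change, with a median of 0.31, 7 at an unadjusted p under 0.05, and 6 with every NOTCHWT_TCFKO library above every NOTCHWT_TCFWT library (33.3%, as in 18.4% of all tested genes). NICD_TCFKO over NICD_TCFWT had a median of 0.26 with 17 of 18 positive and 0 calls by edgeR (1 by DESeq2, 0 by limma-voom and 4 at an unadjusted p under 0.05), and NICD_TCFKO over NOTCHWT_TCFWT a median of 0.23 with 18 positive and 0 calls (0 by DESeq2, 0 by limma-voom and 4 at an unadjusted p under 0.05). Between the 2 TCFKO groups the median was -0.071, and between the 2 TCFWT groups 0.017, with 0 calls by edgeR between the TCFWT groups (0 by DESeq2, 0 by limma-voom and 1 at an unadjusted p under 0.05). No mitotic gene had a called interaction by edgeR (2 by DESeq2, 0 by limma-voom and 2 at an unadjusted p under 0.05), the smallest p being those of Cdc20 (-0.54 ± 0.20, adjusted p = 0.0687) and Ccnb1 (-0.63 ± 0.25, adjusted p = 0.0849), and the class median of the interaction was -0.071.

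Promoters of 2 mitotic genes are shown because CHR and CCAAT elements are the textbook features of genes that peak late in the cycle. In the 250 bases before the start, CCAAT was present in 13 of 14 matched mitotic genes (92.9%), against 37.5% of all genes in the table, and a CHR element in 7 of 14 (50%), against 19.6%. All 7 also held CCAAT (50%, against 7.93% of all genes). Ccnb1 (chr13:100786487-100786736, minus strand) is the called mitotic gene with an entry, and Top2a (chr11:99024190-99024439, minus strand) has the most CHR matches of the 46. Capitals mark 2 CCAAT in Ccnb1, and 4 CHR and 6 CCAAT matches on both strands in Top2a. No CHR match says only that those letters are not in the Ccnb1 window.
Ccnb1: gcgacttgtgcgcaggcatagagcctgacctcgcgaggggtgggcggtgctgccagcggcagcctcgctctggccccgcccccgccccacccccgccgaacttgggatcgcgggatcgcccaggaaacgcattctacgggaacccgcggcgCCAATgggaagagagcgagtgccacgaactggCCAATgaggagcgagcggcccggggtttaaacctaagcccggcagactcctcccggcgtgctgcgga
Top2a: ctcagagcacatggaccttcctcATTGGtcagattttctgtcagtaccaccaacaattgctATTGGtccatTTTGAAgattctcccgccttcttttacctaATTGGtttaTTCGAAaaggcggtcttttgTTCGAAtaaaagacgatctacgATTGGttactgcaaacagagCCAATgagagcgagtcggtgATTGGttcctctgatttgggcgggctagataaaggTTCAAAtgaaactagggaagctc

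Of 40 other mitotic genes, 4 rose in NOTCHWT_TCFKO over NOTCHWT_TCFWT and 0 fell (background 21.3%), with 39 of 40 positive and a median of 0.29. As log2 fold changes with SE they were the condensin gene Smc4 (0.47 ± 0.12, adjusted p = 0.0175), Ect2 (0.43 ± 0.12, adjusted p = 0.0293) and Kif23 (0.44 ± 0.14, adjusted p = 0.0441) of cytokinesis, and Hmmr (0.54 ± 0.16, adjusted p = 0.0404), a spindle protein. Smc4 also rose in NICD_TCFKO over NICD_TCFWT (0.47 ± 0.12, adjusted p = 0.0279), the 1 call there, and in NOTCHWT_TCFKO over NICD_TCFWT (0.51 ± 0.12, adjusted p = 0.0462). Over NOTCHWT_TCFWT, NICD_TCFKO had 3 higher (7.50%, background 6.30%), Pttg1 (0.82 ± 0.15, adjusted p = 0.0125), the phosphatase gene Cdc25b (0.68 ± 0.13, adjusted p = 0.0126) and Kif23 (0.61 ± 0.14, adjusted p = 0.0263).

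Pttg1, which encodes securin, the inhibitor of sister chromatid separation, was called between the NICD and NOTCHWT groups. It stood at 25.3, 26.3 and 29.7 CPM in NICD_TCFKO, 13.9, 14.4 and 14.9 CPM in NOTCHWT_TCFKO, 29.3, 26.9 and 22.7 CPM in NICD_TCFWT and 16.4, 11.8 and 17.8 CPM in NOTCHWT_TCFWT. Both NICD groups lay above both NOTCHWT groups without overlap. The log2 fold change was 0.91 ± 0.15 (SE, adjusted p = 0.00301) for NICD_TCFKO over NOTCHWT_TCFKO, 0.78 ± 0.15 (SE, adjusted p = 0.00546) for NICD_TCFWT over NOTCHWT_TCFWT and -0.87 ± 0.15 (SE, adjusted p = 0.0139) for NOTCHWT_TCFKO over NICD_TCFWT by edgeR, and it was the 1 gene of its list called in the first and second of these. The 2 NICD groups are also the ones with the added CD45.2 and eGFP gate, and the part of the gate cannot be told apart from the label.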

How the data were processed

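RNA from sorted LSK cells was read single-end on a NextSeq 500, with TruSeq and Nextera XT reagents per the labels' protocols. The deposited table holds raw counts per gene made by the authors, and a second deposited table holds log2 CPM values on scaled library sizes, also made by the authors and not used here. The submitters' processing notes name the mm10 build, featureCounts 1.4.4 and HISAT2, the read tools cutadapt 1.9.1 and bcl2fastq 2.17, and limma with edgeR 3.28.0, with no role, filter or strand setting given. All value columns matched a library by title, leaving 0 unmatched.

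Counts were filtered (filterByExpr), scaled by TMM and fitted in R 4.3.3 with edgeR 4.0.16 as 1 model of 4 group means over 12 libraries, with the robust quasi-likelihood test and Benjamini-Hochberg adjustment over 16024 genes at a threshold of 0.05. Standard errors came from the fold changes and their F statistics. Levels per kb used the union of exons in GENCODE M21. The common biological coefficient of variation was 0.299. Replicates had r of 0.943 to 0.985 over genes, and no 2 replicates agreed within counting error. The scripts were tested on simulated counts. The 46 genes, the lists and the tests were chosen with earlier results of these data known. Named with values are all called genes, the 2 with the smallest p in a class with fewer than 2 calls, and 12 genes given in every group (Mki67, Top2a, Pcna, Mcm2, the D-type cyclins, Cdk4, Cdk6 and the pocket proteins). Promoters shown are those of genes called for any difference that hold a motif, and of Mcm6 and Top2a, added for their motif counts. Alternatives were DESeq2 1.42.0, limma-voom (limma 3.58.1), other scalings and filters, a replicate block, a term for the library sheet, single contrasts and each library left out. The labels put all libraries in the same batch. The second library sheet was inferred here from sample numbers that recur in the library titles, and no label names it. The values of 1 gene of the replication list are not reported here.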

Additional observations from a re-analysis of the deposited data

Results flagged for a closer look

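For 7 of the 46 genes the difference between TCFKO and TCFWT was itself different in the NICD and the NOTCHWT libraries, by the edgeR interaction term (background 27.4% of all tested genes). All values are log2 fold changes of TCFKO over TCFWT and log2 interactions with SE. Cdk6 had 0.26 between the NICD groups and -0.66 between the NOTCHWT groups, an interaction of 0.92 ± 0.15 (SE, adjusted p = 0.00116). Ccnd1 had -1.96 between the NICD groups and 1.08 between the NOTCHWT groups, an interaction of -3.05 ± 0.65 (SE, adjusted p = 0.00725). These 2 interactions, of opposite sign, passed in all 25 alternatives. Cdk4 had 0.16 between the NICD groups and -0.22 between the NOTCHWT groups and an interaction of 0.38 ± 0.10 (SE, adjusted p = 0.0179).

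Of the replication genes, Uhrf1 had 0.46 between the NICD groups and -0.092 between the NOTCHWT groups with an interaction of 0.56 ± 0.14 (SE, adjusted p = 0.0147). Tyms had 0.31 between the NICD groups and -0.088 between the NOTCHWT groups with an interaction of 0.40 ± 0.11 (SE, adjusted p = 0.0181), and Mcm4 had 0.39 between the NICD groups and -0.14 between the NOTCHWT groups with an interaction of 0.54 ± 0.15 (SE, adjusted p = 0.0241). For all 3 the difference was positive and called in the NICD pair, and negative but not called by edgeR in the NOTCHWT pair. Rbl2 had -0.12 between the NICD groups and 0.18 between the NOTCHWT groups with an interaction of -0.30 ± 0.099 (SE, adjusted p = 0.0451). Tcf7 itself stood at 297, 896 and 615 CPM in NICD_TCFKO, so the interaction is one of labels.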

How the results depend on the processing

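No called fold change of the 46 genes changed sign in the 26 alternatives (25 for the interaction and any difference). Of 36 called values, 9 kept their call in each alternative run for them: Cdk6 (any difference, both comparisons with NOTCHWT_TCFWT and the interaction), Uhrf1 and Tyms (any difference and NICD_TCFKO over NOTCHWT_TCFKO) and Ccnd1 (interaction). DESeq2 and limma-voom lost 0 of the 36, and leaving out the second library sheet inferred from the titles (replicate 3 of NICD_TCFKO, NICD_TCFWT and NOTCHWT_TCFWT) lost 18. By DESeq2 the counts of called genes were 21 for any difference, 10 for NICD_TCFKO over NICD_TCFWT, 10 for NOTCHWT_TCFKO over NOTCHWT_TCFWT, 4 for NICD_TCFKO over NOTCHWT_TCFWT and 11 for NOTCHWT_TCFKO over NICD_TCFWT, against 9, 6, 4, 2 and 0 by edgeR. The counts in this section are given without the share of all tested genes called in each setting. They therefore do not show a change particular to the 46 genes. Fitted on 2 groups alone, the counts were 8 for NICD_TCFKO over NICD_TCFWT (8 higher and 0 lower, with 3 of the 6 genes called in the full fit), 1 for NOTCHWT_TCFKO over NOTCHWT_TCFWT, 5 for NICD_TCFWT over NOTCHWT_TCFWT, 3 for NICD_TCFKO over NOTCHWT_TCFKO and 0 for NICD_TCFKO over NOTCHWT_TCFWT. Without the second sheet, NICD_TCFKO over NICD_TCFWT and over NOTCHWT_TCFWT had 0 and 0 calls. NOTCHWT_TCFKO over NOTCHWT_TCFWT had 7 with upper-quartile scaling. With Xist as a term, NICD_TCFKO over NOTCHWT_TCFWT had 4, and without the 2 libraries highest in Klf1 NOTCHWT_TCFKO over NOTCHWT_TCFWT had 2; these last 2 settings were chosen after seeing the data. The cause of these shifts was not tested, and the smaller fits also had fewer libraries.

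With 1 library left out at a time, the count ran from 1 to 10 for NICD_TCFKO over NICD_TCFWT, 1 to 11 for NOTCHWT_TCFKO over NOTCHWT_TCFWT, 1 to 3 for NICD_TCFWT over NOTCHWT_TCFWT, 3 to 8 for NICD_TCFKO over NOTCHWT_TCFKO, 0 to 3 for NICD_TCFKO over NOTCHWT_TCFWT, 0 to 11 for NOTCHWT_TCFKO over NICD_TCFWT, 3 to 11 for the interaction and 4 to 18 for any difference.

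The replicate numbers do not pair the libraries throughout: 7 of 18 same-number pairs had deviations that correlated over 0.1 (r from -0.40 to 0.45), and pairs with other numbers ran from -0.45 to 0.47. Libraries of the inferred second sheet correlated positively with each other (r of 0.15 to 0.45), and negatively with NOTCHWT_TCFKO replicate 3 (r of -0.40 to -0.21). Of that sheet, NICD_TCFKO and NICD_TCFWT replicate 3 also correlated with NOTCHWT_TCFKO replicate 2, outside it (r of 0.47 and 0.46). With a replicate block the counts were 5 for NICD_TCFKO over NICD_TCFWT, 3 for NOTCHWT_TCFKO over NOTCHWT_TCFWT, 3 for NICD_TCFWT over NOTCHWT_TCFWT, 3 for NICD_TCFKO over NOTCHWT_TCFKO, 3 for NICD_TCFKO over NOTCHWT_TCFWT, 0 for NOTCHWT_TCFKO over NICD_TCFWT, 6 for the interaction and 6 for any difference.

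Depth limits these genes little, since each had at least 321 counts in every library. Fold changes of 46 genes in a sorted bulk fraction do not separate cycling cells from resting ones. The alternatives were run for the 46 genes, and for the other pathway genes only DESeq2 and limma-voom were.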
